A study of Mus musculus with 2 samples.

Results

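The blood vessel nuclei described here came from a single-nucleus RNA-seq library of the mouse tibia at day 5 after musculoskeletal traumatic injury (MTI). They were chosen by a rule on unique molecular identifiers (UMIs, each standing for 1 captured RNA molecule) of marker genes. A nucleus was taken when its summed UMIs of Pecam1, Flt1, Ptprb, Emcn, Eng, Notch3, Rgs5 and Myh11 reached 3 and exceeded each of 3 other sums, those of macrophage, collagen and skeletal muscle genes. The rule found 59 of the 1127 nuclei that passed the quality limits (5.24%, exact 95% interval 4.01% to 6.70%), out of 1446 barcodes in the library. The whole series held 3532 such nuclei in 2 libraries. Nuclei with more UMIs of Pecam1, Flt1, Ptprb, Emcn and Eng than of Notch3, Rgs5 and Myh11 form the endothelial side (46 nuclei), nuclei with the reverse form the mural side (13 nuclei), and 0 nuclei were equal.

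The MTI group was made of wild-type C57BL6 mice, males and females mixed, operated at 10 to 14 weeks of age. Their tibia was cut in an open osteotomy and the muscles around it were crushed with a hemostat. The tissue taken was the callus with its hematoma and the periosteum around it, tibias of 3 or 4 mice were pooled, and Sytox-AAD+ nuclei were sorted into 1 library. The second library of the series came in the same way from tibias at day 1 after fracture without muscle injury. With 1 pooled library per condition there is no replicate and no test, and condition, day and library cannot be told apart, so the nuclei below are described within the MTI library. All intervals are 95% intervals for counting error only. They hold neither the spread between mice nor that between nuclei. The libraries shared 33 barcode sequences, of which 1 belonged to a vascular nucleus, and no vascular barcode was shared with a retained nucleus of the other library.

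Endothelial cells line every blood vessel. They bind VEGF through the receptor kinases Flt1, Kdr and Flt4 and angiopoietins through Tek, and are held together by VE-cadherin, the product of Cdh5. Pericytes wrap capillaries, while smooth muscle cells ring arteries and veins. Both are called mural cells, depend on PDGF-B made by the endothelium and read by Pdgfrb, carry Notch3, and share a basement membrane with the endothelium. After a bone injury, vessels grow into the callus, and the bone that replaces it forms along them.

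The library held 4337337 UMIs in its retained nuclei and 296901 in the vascular nuclei. A vascular nucleus had between 518 and 14669 UMIs, with a median of 4497, and the 1068 other retained nuclei had a median of 2274.5. The median was 4141.5 UMIs on the endothelial side and 6236 on the mural side. Levels below are pooled UMIs per 1000000 UMIs of the same group of nuclei (CPM), so that a gene can be compared between groups at unequal depth. Genes are not compared with each other on this scale, since intronic reads favour long genes.

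The label was then checked against genes that the rule had not used, and part of the set went against it. On the endothelial side, 33 of 46 nuclei had more UMIs of 25 pan-endothelial genes (Cdh5, Tek, Tie1, Kdr and others) than of myeloid and lymphoid genes together. In these 33 nuclei Pecam1 ranged from 1 to 32 UMIs with a median of 5, Flt1 was found in 31, Cdh5 in 29 and Mecom in 32. The pan-endothelial list gave 3 to 287 UMIs per nucleus, with a median of 83. These 33 are called endothelial below. Since they were set apart by having more pan-endothelial than immune UMIs, their levels of those lists follow from the split and are given as a description.

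The other 13 nuclei of the endothelial side had entered almost entirely through Pecam1, which gave 70 UMIs, against 2 UMIs of Flt1. They had 0 UMIs of Cdh5 and 0 of Mecom, and 43 of their 64 pan-endothelial UMIs were of Fli1, a transcription factor that blood cells also use. Instead, 113 UMIs of Ptprc, the pan-leukocyte gene for CD45, were found in 11 of the 13, and 21 UMIs of the immunoglobulin heavy chain gene Ighm in 7. Bach2, a B and T cell regulator, gave 156 UMIs, 63 of them in 1 nucleus. Myeloid and lymphoid genes together exceeded the pan-endothelial list in 12 of the 13, and 1 nucleus had neither. Pecam1 is also made by leukocytes and platelets, and the rule's macrophage genes do not cover lymphocytes.

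On the mural side, 4 of 13 nuclei held UMIs of Pax7, the defining gene of muscle satellite cells, at 6, 20, 13 and 4 UMIs. Notch3, itself known in satellite cells, reached 16 to 21 UMIs in each of them and was the gene by which they entered. They held 3 UMIs of 14 pericyte genes and 8 of 12 smooth muscle genes, and 79 of 9 skeletal muscle genes, 7 to 29 per nucleus. Of these 79, 43 were of Pax7, by which the 4 nuclei had been picked, 23 of Mybpc1 and 12 of Ryr1. In the 9 mural nuclei without Pax7, Notch3 ranged from 1 to 28 UMIs, Myh11 gave 12, 4, 46, 1 and 19 UMIs in 5 nuclei, and Rgs5 gave only 7 and 8 UMIs in 2. Pecam1 was at 0 in all 13 mural nuclei.

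The 13 immune-marked nuclei and the 4 Pax7 nuclei were set apart after their values had been seen. They keep no cell type name here, and the 13 are called immune-marked although 1 of them held no immune UMI. Levels are given mainly for the 33 endothelial nuclei (166230 UMIs) and the 9 mural nuclei (44676 UMIs), called so from here on, and counts of genes between the sides are given for all 59 nuclei and then for the 33 and 9.

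**Figure D1:**
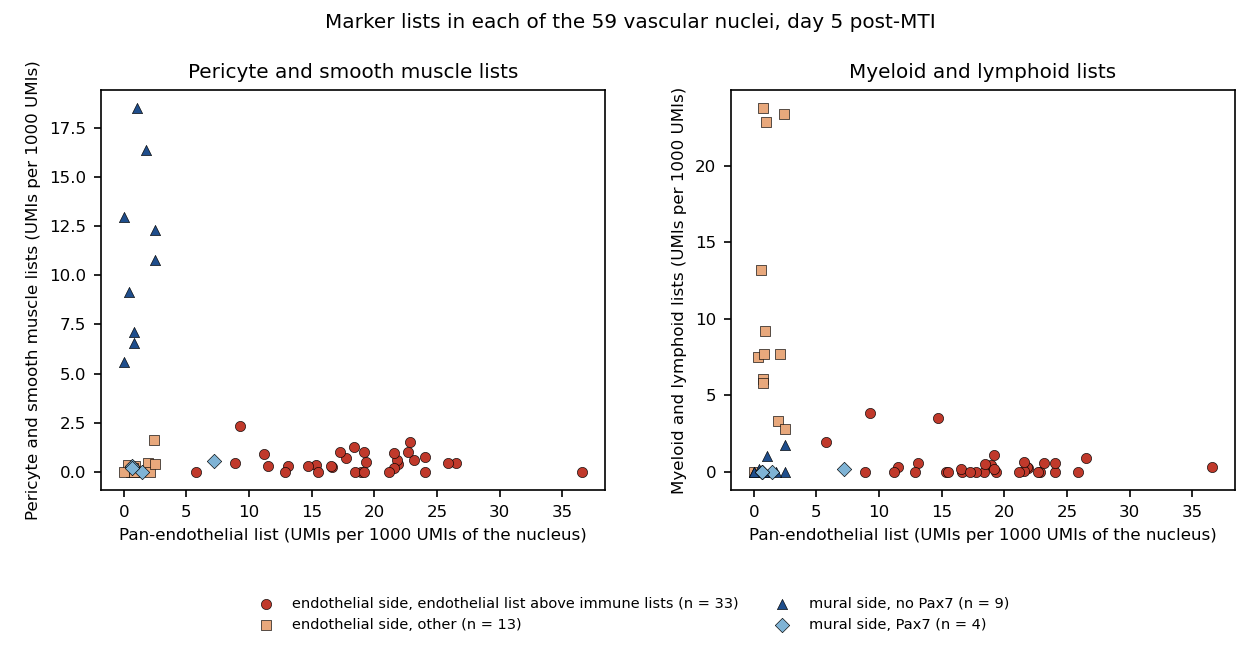
Each point is 1 of the 59 vascular nuclei, with UMIs of the pan-endothelial list per 1000 UMIs of the nucleus on the x axis and UMIs of the pericyte and smooth muscle lists (left) or of the myeloid and lymphoid lists (right) per 1000 UMIs on the y axis. The 33 endothelial nuclei spread along the x axis, the 9 mural nuclei without Pax7 stand alone on the left y axis, and the other 13 nuclei of the endothelial side, of which 12 had immune UMIs, lie along the right y axis.

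Nuclei with few marker UMIs held more immune than pan-endothelial UMIs. Just inside it, the 5 nuclei with 3 marker UMIs held 1842 CPM of pan-endothelial and 4110 CPM of immune genes, and 1 of the 5 had more of the former. Just outside it, the 12 nuclei with 2 marker UMIs that met the other conditions held 1381 and 4142 CPM respectively, so both sides of the border were mixed. Further inside, the 4 nuclei with 4 marker UMIs held 1036 CPM of pan-endothelial and 5239 CPM of immune genes, and the 10 nuclei with 5 to 9 marker UMIs 2621 and 7829 CPM. The 30 nuclei with 20 or more marker UMIs held 14549 and 135 CPM, and 29 of them had more pan-endothelial than immune UMIs. The other was a mural nucleus with 0 UMIs of both. The marker sum covers both sides, so these groups include mural and Pax7 nuclei. The other conditions had removed 29 of 88 nuclei with 3 or more marker UMIs, and the collagen sum, which exceeded or matched the marker sum in 20 of them, removed the most.

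Set against the other 1068 retained nuclei, 1255 of 15187 genes with at least 10 UMIs were at least 2-fold higher in the 59 vascular nuclei with an interval not holding 1 (8.26%), and 1299 were as far lower (8.55%). Between the sides, 752 of 5627 genes were higher on the endothelial side (13.4%) and 591 on the mural side (10.5%). The 25 genes of the rule were left out. Since the nuclei were chosen by UMIs of the same library, these counts describe the set and nothing is read from them as a test. Without the 17 nuclei set apart, 1303 genes were higher and 1555 lower in vascular nuclei, and 1010 of the higher genes were in both lists (80.5% of the first, 77.5% of the second). Between the 33 endothelial and the 9 mural nuclei 492 (11.4%) and 403 (9.36%) of 4306 genes were called, and 377 of the endothelial genes were shared (50.1% of 752 and 76.6% of 492).

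Of 23 pan-endothelial genes compared, 23 were higher in vascular than in other nuclei, with a median log2 ratio of 5.48 beside 0.18 over all genes, and 21 of 21 were higher on the endothelial than on the mural side. Between the 33 endothelial and the 9 mural nuclei, 17 of 21 were higher. Summed, they stood at 19443 CPM (18778 to 20125) in the 33 endothelial nuclei, 1182 CPM in the 13 immune-marked nuclei, 1231 CPM in the 9 mural nuclei, 3833 CPM in the 4 Pax7 nuclei and 1527 CPM in the other retained nuclei. Of 122 such UMIs in the Pax7 nuclei, 119 were of Cdh13, 105 of them in 1 nucleus. Cdh5 (mm10 chr8:104101625-104144511, plus strand) had 167 UMIs in 29 vascular nuclei and 16 in the 1068 other nuclei, a ratio of 142-fold (84.9 to 254). All of its vascular UMIs fell in the 33 endothelial nuclei, at 1005 CPM (858 to 1169), and the ratio over the mural side was at least 19.3-fold.

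Other genes of the endothelial surface and cytoplasm lay mainly in the same nuclei. Egfl7, a matrix protein secreted by endothelium, had 164 UMIs, 162 of them in the 33, against 17 in other nuclei, a ratio of 131-fold (79.5 to 231), and the adhesion receptor Adgrl4 had 210, of which 12 lay in immune-marked nuclei, against 45 (63.5-fold, 45.8 to 89.7). Robo4, a guidance receptor of the endothelial surface, was found in 15 vascular nuclei with 31 UMIs and gave 2 UMIs in all others. Nos3, which makes the dilator nitric oxide, gave 32 UMIs in 14 nuclei (72.6-fold, 29.9 to 212), all of them among the 33. Vwf, the von Willebrand factor stored by endothelium, gave 28 UMIs in 10 of the 33 nuclei, 1 in the immune-marked nuclei and 2 in 2 mural nuclei, and its ratio over the 9 mural nuclei was not resolved (3.76-fold, 0.949 to 32.6).

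Transcription factors of the endothelial lineage were next compared. Mecom (chr3:29951296-30548008, minus strand), a zinc finger factor, had 1098 UMIs, of which 1097 lay in 32 of the 33 endothelial nuclei and 1 in a mural nucleus, giving 6599 CPM (6214 to 7002), and 286 UMIs in the other nuclei, at 70.8 CPM. Erg, an ETS factor that maintains endothelial identity, had 119 UMIs in 26 of the 33, 0 elsewhere in the set and 149 in the 1068 other nuclei, a ratio of 10.9-fold (8.47 to 13.9). Its relative Fli1 had 257 UMIs in the 33, 43 in the immune-marked nuclei and only a 2.48-fold (2.19 to 2.81) ratio of vascular over other nuclei. Sox7 had 15 UMIs in 9 nuclei and 0 in the other 1068, and Bcl6b had 33 against 2.

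**Figure D2:**
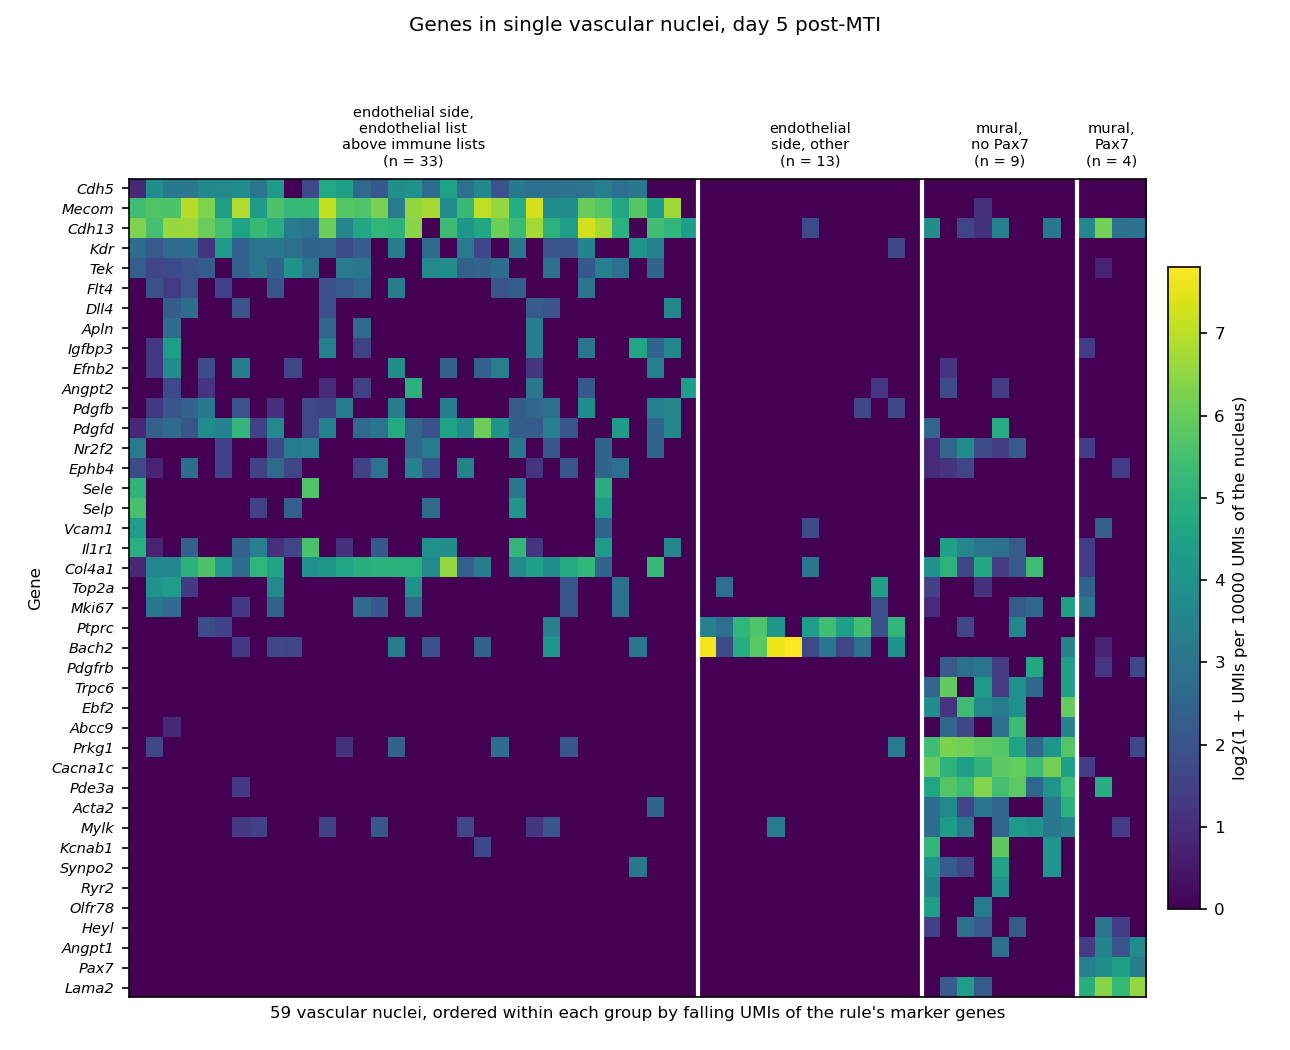
Each column is 1 of the 59 vascular nuclei and each row a gene, coloured by log2(1 + UMIs per 10000 UMIs of the nucleus). White lines divide the 33 endothelial nuclei, the 13 immune-marked nuclei, the 9 mural nuclei and the 4 Pax7 nuclei. Cdh5 and Mecom fill the first block, Ptprc and Bach2 the second, Cacna1c, Prkg1 and Pde3a the third and Lama2 and Pax7 the fourth.

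The start regions of 2 genes are shown because each stands for its side, Tie1 for the endothelium and Acta2 for the mural cells. Both are 300 bases long, from 250 bases before to 50 after a RefSeq start of the gene, and come from RefSeq (GRCm38.p6). The RefSeq starts, at position 118489849 of chromosome 4 for Tie1 and 34255373 of chromosome 19 for Acta2, lie inside the gene spans of the GENCODE annotation given with the values of these genes, so the windows lie partly within those spans. The Tie1 sequence lies at chr4:118489800-118490099 on the minus strand and the Acta2 sequence at chr19:34255324-34255623 on the minus strand. Capitals mark GGAA, the core letters bound by ETS factors such as Erg and Fli1, and its reverse complement TTCC.
Tie1: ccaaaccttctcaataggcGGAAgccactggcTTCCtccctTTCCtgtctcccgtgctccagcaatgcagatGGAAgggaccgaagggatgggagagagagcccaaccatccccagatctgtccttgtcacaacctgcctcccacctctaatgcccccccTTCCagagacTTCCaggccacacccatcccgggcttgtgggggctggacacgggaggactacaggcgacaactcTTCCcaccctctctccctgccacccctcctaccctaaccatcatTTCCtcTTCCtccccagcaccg
Acta2: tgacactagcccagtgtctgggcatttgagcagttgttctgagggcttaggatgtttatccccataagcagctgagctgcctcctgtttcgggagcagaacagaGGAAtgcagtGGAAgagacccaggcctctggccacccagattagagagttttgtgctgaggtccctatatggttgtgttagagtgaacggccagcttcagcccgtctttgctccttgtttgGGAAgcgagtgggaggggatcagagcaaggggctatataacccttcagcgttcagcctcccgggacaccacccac
The Tie1 region held 9 such cores, 2 as GGAA and 7 as TTCC, and the Acta2 region held 3, all as GGAA. A core occurred in 96.0% of 32851 promoters of this length, with a median of 3 per promoter. By list, it occurred in 93.75% of 16 pan-endothelial, 90% of 10 pericyte and 100% of 13 smooth muscle promoters, so its presence did not separate the sides. These matches describe letters only.

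VEGF and angiopoietin genes were found on both sides, with Kdr, Flt4, Tek and Tie1 at 0 UMIs in the 9 mural nuclei. Of 12 genes compared, 5 were higher in vascular than in other nuclei and 0 lower, and between the sides 6 of 10 were higher on the endothelial and 2 on the mural side (6 and 1 of 9 without the nuclei set apart). Kdr, the main signalling receptor for VEGF-A, gave 81 UMIs in 24 of the 33 endothelial nuclei, 487 CPM (387 to 606), and 0 in the 9 mural nuclei (at least 7.26-fold). Flt4, the receptor for VEGF-C that is also used by lymphatics, gave 27 UMIs in 12 of the 33, and 11 of these 12 nuclei also held Kdr. Flt1 was used by the rule and its values are a description only. It stood at 987 CPM (841 to 1150) in the 33 endothelial nuclei and at 985 CPM (716 to 1322) in the 9 mural nuclei, with 20, 11, 8, 4 and 1 UMIs in 5 of the latter, all without Pecam1.

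The neuropilins, co-receptors for VEGF and semaphorins, differed from each other. Nrp2 was at 481 CPM (382 to 599) in the 33 endothelial nuclei and had 0 UMIs in the 9 mural nuclei, while Nrp1 was at 692 CPM (571 to 830.4) and 515 CPM (326 to 772), within counting error of each other. Neither was particular to vascular nuclei, with Nrp1 at 429.7 CPM (409.7 to 450.4) and Nrp2 at 457 CPM (436 to 478) in the other nuclei. Among the ligands, Vegfa had 2 UMIs in the 33 endothelial nuclei and 10 in 3 of the 9 mural nuclei, a ratio of 18.6-fold (3.96 to 175) toward the mural side, and its level over all vascular nuclei was that of the other nuclei (0.907-fold, 0.585 to 1.35). Vegfc went the other way, with 17 UMIs in 6 endothelial and 0 in mural nuclei.

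Tek and Tie1, the angiopoietin receptor and its partner, were endothelial. Tek gave 68 UMIs in 22 of the 33 nuclei, 409 CPM (318 to 519), and Tie1 (chr4:118471191-118490061, minus strand) gave 40 in 22, 241 CPM (172 to 328), each with 0 in the 9 mural nuclei. Angpt2, the ligand released by activated endothelium, had 20 UMIs in 8 of the 33 and 3 in 2 mural nuclei, a ratio that counting error did not resolve (1.79-fold, 0.531 to 9.42). Angpt1, the ligand that pericytes are known to supply, had 0 UMIs on the endothelial side and 28 on the mural side. Of these 28, 24 lay in the 4 Pax7 nuclei, at 1, 15, 2 and 6 UMIs, and 4 in 1 of the 9 mural nuclei, so that its place on the mural side rested on the Pax7 nuclei. Over all vascular nuclei Angpt1 was at the level of the other nuclei (0.997-fold, 0.654 to 1.47).

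**Figure D3:**
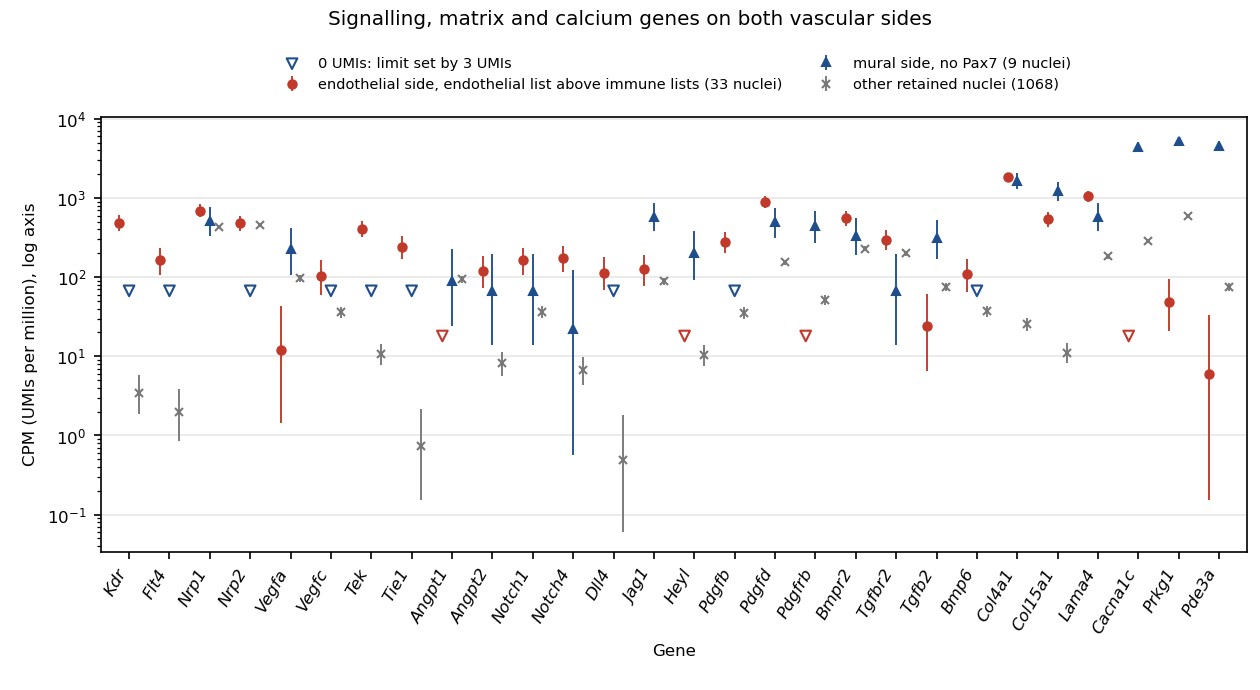
CPM on a log axis of ligand, receptor, matrix and calcium genes in the 33 endothelial nuclei (circles), the 9 mural nuclei (triangles) and the 1068 other retained nuclei (crosses), with 95% intervals for counting error. Open triangles mark a gene with 0 UMIs at the limit that 3 UMIs would give. Kdr, Tek and Pdgfb are at 0 in the mural nuclei, Pdgfrb and Heyl are at 0 in the endothelial nuclei, and Col4a1 is at 1829 CPM in the endothelial and 1634 CPM in the mural nuclei.

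Notch ligands and receptors were found on both sides. Of 10 compared, 6 were higher in vascular than in other nuclei and 2 lower, and between the sides 2 of 8 were higher on each (2 of 7 on each without the nuclei set apart). Over all genes, 13.4% were higher on the endothelial and 10.5% on the mural side, so nothing is read from the side counts of so few genes. Dll4, the ligand of arterial and tip cells, gave 19 UMIs in 7 endothelial nuclei and 2 in all 1068 others (129-fold, 31.2 to 1145). The endothelial receptors Notch1 and Notch4 were at 162 CPM (107 to 236) and 174 CPM (117 to 251) in the 33 nuclei. Notch4 was also higher there than in the 9 mural nuclei (7.79-fold, 1.29 to 318), whereas the ratio of Notch1 was not resolved (2.42-fold, 0.744 to 12.5).

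Jag1, the ligand through which endothelium and mural cells reach Notch3, was found on both sides and was higher in mural nuclei, at 582 CPM (380.2 to 853) against 126 CPM (78.2 to 193), a ratio of 4.61-fold (2.49 to 8.61). Notch3 itself (chr17:32120820-32166852, minus strand), which the rule used, gave 74 UMIs in 9 of 9 mural nuclei. The Notch target Heyl, a transcription factor, gave 9 UMIs in 4 of the 9 mural nuclei and 11 in the Pax7 nuclei, with 0 in the 46 nuclei of the endothelial side and 42 in the other retained nuclei. Hey2 followed with 4 UMIs in 3 mural nuclei and 0 in all other retained nuclei of the library.

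Of the PDGF genes, 2 of 5 compared were higher on the endothelial and 3 on the mural side, and without the nuclei set apart 1 and 2 of 4. Pdgfb, the ligand that recruits pericytes, gave 46 UMIs in 17 of the 33 endothelial nuclei, 277 CPM (203 to 369), and 0 in the 13 mural nuclei. Its receptor Pdgfrb gave 0 UMIs on the endothelial side and 3, 3, 6, 5, 1 and 2 UMIs in 6 of the 9 mural nuclei, 448 CPM (273 to 691), a ratio over the 33 endothelial nuclei of at least 24.8-fold. Pdgfd, a second ligand of the same receptor, was found in 27 of the 33, at 890.3 CPM (753 to 1046), but also as 5 and 17 UMIs in 2 mural nuclei (492 CPM, 309 to 746), and with no UMI of the other side allowed its log2 ratio between the sides turned to -0.41. Pdgfa and Pdgfc were higher on the mural side, with 10 and 9 UMIs in the 9 mural nuclei against 5 and 0 in the 33 endothelial nuclei. In the other nuclei Pdgfrb stood at 51.7 CPM (45.0 to 59.2), and its ratio for the whole vascular set, in which the endothelial side held 0 UMIs, was not resolved (1.50-fold, 0.929 to 2.31).

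Genes that mark positions along the vessel tree were next compared. Of the venous and venular list 7 of 8 genes were higher in vascular than in other nuclei, of the arterial list 6 of 9, and of the capillary list 6 of 7 with 1 lower. Each gene was also compared without the nucleus that held most of its UMIs. The venous Vcam1 and Lrg1, the arterial Jag1 and the capillary Fabp4 and Gpihbp1 were then no longer called. For Gpihbp1 the ratio stayed high (99.5-fold, 12.8 to 4483). The ratios of the arterial Fbln5 (0.576-fold, 0.116 to 1.75) and the capillary Timp4 (0 UMIs against 5) fell below 1 but were not resolved. In the 33 endothelial nuclei the venous list stood at 2039 CPM (1828 to 2268), against 526 CPM in other nuclei, the arterial list at 818 CPM (686 to 968) against 185 CPM, and the capillary list at 547 CPM (441 to 672) against 301 CPM. In the 9 mural nuclei they stood at 448, 739 and 313 CPM. Of the 339 venous UMIs in the 33 nuclei, 144 lay in 1 nucleus, without which the list was at 1266 CPM (1095 to 1457), and 10 of the 14 capillary UMIs of the mural nuclei lay in 1, without which that list was at 104 CPM (28.4 to 266). These lists share genes with others, such as Dll4, Vwf, Sele and Selp.

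Efnb2 and Nr2f2, the usual arterial ligand and the usual venous transcription factor, were each found in 11 of the 33 endothelial nuclei and together in 2. Efnb2 was at 241 CPM (172 to 328) in the 33 and had 1 UMI in the 9 mural nuclei. Nr2f2 was on both sides, at 180.5 CPM (122 to 258) and 336 CPM (188 to 554), without a difference beyond counting error. Ephb4, the venous receptor for ephrin-B2, was found in 16 of the 33. The arterial connexin genes Gja5 and Gja4 gave 4 UMIs in 2 vascular nuclei and 2 UMIs in 1, and the venular chemokine receptor Ackr1 gave 4 UMIs in 1 nucleus.

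Of the capillary genes, Gpihbp1, which holds lipoprotein lipase at the capillary wall, gave 9 UMIs in 8 of the 33 nuclei and 1 UMI in all other nuclei. The water channel gene Aqp1 gave 13 UMIs in 7. Cd36, a fatty acid transporter, was lower in vascular nuclei than elsewhere (0.482-fold, 0.332 to 0.679), and 17 of its 34 vascular UMIs lay in 1 immune-marked nucleus. Macrophages use Cd36 too, and it was found in 13.5% of 364 myeloid nuclei after thinning each nucleus to 500 UMIs. Of 5 lymphatic genes compared, 2, Flt4 and Klhl4, were higher in vascular than in other nuclei and 1, Pdpn, was lower. The list stood at 211 CPM (147 to 293) in the 33 endothelial nuclei against 132 CPM in the other nuclei, with 27 of its 35 UMIs in the 33 from Flt4 and 7 from Klhl4. Lyve1, Mmrn1 and Ccl21a gave 0 UMIs in the 59 nuclei, and Prox1, the lymphatic master regulator, gave 1 UMI in the 33, while its other 8 vascular UMIs lay in Pax7 nuclei. The limit of 3 UMIs set for a count of 0 was 18.0 CPM in the 33 endothelial nuclei.

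Leukocyte adhesion genes were carried by few nuclei. Of 12 compared, 6 were higher in vascular than in other nuclei and 1, Ccl2, was lower, with 0 UMIs against 28.0 CPM (23.0 to 33.6). Sele, the E-selectin gene that inflamed endothelium uses to slow leukocytes, gave 41, 21, 2 and 6 UMIs in 4 of the 33 endothelial nuclei and 0 in the other 29. Selp, the P-selectin gene, gave 68 UMIs in 6 nuclei. Sele, Selp, Vcam1, Icam1 and Il1r1 had their highest counts in 1 nucleus of 12220 UMIs, with 41, 55, 24, 14 and 37 UMIs, which also held the highest Pecam1 count, 32. For Il1r1 these were 37 of its 130 vascular UMIs.

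On the endothelial side without that nucleus the selectins stayed above the other nuclei and the integrin ligands did not. Sele was then at 29 UMIs, 80.4-fold over other nuclei (34.5 to 217), and Selp at 13, 15.8-fold (6.98 to 35.0). Vcam1, which holds leukocytes through integrins, fell to 2 UMIs (0.344-fold, 0.0411 to 1.27) and Icam1 to 4 (0.636-fold, 0.171 to 1.67). All 4 nuclei with Sele also held the venous factor Nr2f2, 3 of the 4 held Selp, and 0 held Apln. Il1r1, the receptor for interleukin 1, was more widespread, with 16 of 33 endothelial and 5 of 9 mural nuclei at 578 CPM (468 to 705) and 739 CPM (508 to 1037), above the other nuclei at 102 CPM (92.4 to 112). Cxcl12, a chemokine that retains stem cells and leukocytes, gave 20 UMIs in 4 endothelial nuclei and 0 on the mural side. Of these, 12 lay in 1 nucleus, without which its ratio over other nuclei was not resolved (1.62-fold, 0.674 to 3.38).

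Sprouting genes were next compared. Of 12 compared, 9 were higher in vascular than in other nuclei, with a median log2 ratio of 4.91, and 7 of 9 were higher on the endothelial side (6 of 9 without the nuclei set apart). The list stood at 2619 CPM (2166 to 3139) in the 9 mural nuclei and at 4584 CPM (4264 to 4921) in the 33 endothelial nuclei, the latter 18.2-fold (15.8 to 21.0) over the collagen nuclei of the same library. Most of its UMIs were of collagen IV genes, which are counted in the basement membrane list as well. Of its 902 UMIs in the 59 vascular nuclei, 381 were of Col4a1 and 296 of Col4a2. The level of the list without these genes was not computed. Apln, the peptide made by tip cells at the front of a sprout, gave 7, 5, 3 and 7 UMIs in 4 of the 33 nuclei. All 4 held Igfbp3, which was found in 9 of the 33 with 52 UMIs, 3 of the 4 held Dll4, and 0 held Sele. Plvap, the diaphragm protein of fenestrae and caveolae, was more widely spread, in 14 of the 33 (44.7-fold, 18.6 to 123, over other nuclei). Esm1, a further tip cell gene, gave 4 UMIs.

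Cell cycle genes were higher in a few nuclei. Of 12 compared, 6 were higher in vascular than in other nuclei and 0 lower, and the list stood at 1751 CPM (1555 to 1964) in the 33 endothelial nuclei, 1321 CPM in the 9 mural nuclei, 1010 CPM in the collagen nuclei and 636 CPM in the other nuclei. It gave 291 UMIs in the 33 endothelial nuclei, of which 114, or 39.2%, lay in 1 nucleus, without which the list was at 1164 CPM (999 to 1349), and 63 in another. In the mural nuclei, 45 of 59 cell cycle UMIs lay in 1 nucleus, without which the list was at 408 CPM (223 to 685), and in the immune-marked nuclei 33 of 44. Top2a, the topoisomerase of dividing cells, was in 7 of 33 endothelial nuclei at 379 CPM (291 to 485), and Mki67 in 9 at 180.5 CPM (122 to 258), against 74.0 and 87.6 CPM in other nuclei. With no UMI of the other lineages allowed, which left 11 vascular nuclei, the log2 ratios of Top2a and Kif11 over other nuclei turned to -0.75 and -0.96. Mki67 did not pass the 2-fold rule (1.61-fold, 1.14 to 2.23). Over the other nuclei, Top2a was still called without the nucleus that held most of its UMIs (3.04-fold, 2.28 to 4.00). Anln, Cenpe, Diaph3, Kif11 and Knl1, each without its own such nucleus, were no longer called (1.82-, 1.27-, 1.78-, 1.66- and 1.51-fold).

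Basement membrane genes were shared by both sides. Of 13 compared, 12 were higher in vascular than in other nuclei, the exception being Sparc (1.92-fold, 1.56 to 2.35), and between the sides 4 were higher on the endothelial side and 0 on the mural side. Without the nuclei set apart, Lamb1, Nid2 and Sparc were higher in the endothelial nuclei and 1, Col15a1, in the mural nuclei. The list stood at 8398 CPM (7963 to 8850) in the 33 endothelial nuclei and at 6491 CPM (5766 to 7283) in the 9 mural nuclei, against 295 CPM in the immune-marked, 1100 CPM in the Pax7 and 853 CPM in the other nuclei. Over collagen nuclei the endothelial nuclei stood 3.84-fold (3.59 to 4.10) and the mural nuclei 2.97-fold (2.62 to 3.35) higher.

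Col4a1, a chain of the collagen IV network, gave 304 UMIs in 27 of 33 endothelial nuclei and 26, 1, 21, 15, 1, 8 and 1 in 7 of 9 mural nuclei, at 1829 CPM (1629 to 2046) and 1634 CPM (1281 to 2054). In other nuclei it was at 25.2 CPM (20.6 to 30.6), a ratio of 50.8-fold (40.8 to 63.9) for the vascular set. Its partner Col4a2 was 45.3-fold (35.6 to 58.0) higher than in other nuclei. Col15a1, a collagen at the outer face of the basement membrane, was higher in the 9 mural than in the 33 endothelial nuclei (2.27-fold, 1.60 to 3.22), but 43 of its 55 mural UMIs lay in 1 nucleus, without which the ratio turned to 0.609-fold (0.303 to 1.12). Of the 5 laminin genes of the list, Lamb1 alone was called between the 33 and the 9 nuclei. Lama4 was at 1053 CPM (903 to 1221) in endothelial and 582 CPM (380.2 to 853) in mural nuclei, a ratio of 1.81-fold (1.19 to 2.85) that did not reach 2, and Lamb1 was 4.70-fold (1.76 to 17.7) higher in the endothelial nuclei. With no UMI of the other lineages allowed, which left 1 mural nucleus, the log2 ratio of Lamb1 between the sides turned to -1.84. Lama2, the laminin chain of muscle, is not in the list, and had 208 UMIs in the Pax7 nuclei, 15 in 3 of the 9 mural nuclei and 0 on the endothelial side.

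Of 9 junction and flow genes compared, 5 were higher in vascular than in other nuclei and 0 lower. Between the sides 4 of 7 were higher on the endothelial side and 0 on the mural side (5 and 0 without the nuclei set apart), and the list stood at 2316 CPM (2090 to 2559) in the 33 endothelial nuclei against 425 CPM in the 9 mural and 476 CPM in the other nuclei. Arhgap29 and Afdn, which regulate junction tension, were 4.20-fold (2.07 to 9.94) and 11.3-fold (3.03 to 94.7) higher in the former. S1pr1, the sphingosine phosphate receptor that keeps the endothelial barrier closed, gave 23 UMIs in 19 of the 33 and 0 on the mural side. The flow-induced factors Klf2 and Klf4 were near the floor, with 3 and 5 UMIs in the set, and their ratios over other nuclei were not resolved (0.756-fold, 0.151 to 2.33, and 1.28-fold, 0.400 to 3.19).

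Of 15 TGF-beta and BMP genes compared, 6 were higher in vascular than in other nuclei and 1 lower, and between the sides 0 of 12 were higher on the endothelial and 3 on the mural side. Without the 17 nuclei set apart, the counts were 3 and 2 of 11, beside 11.4% and 9.36% over all genes. Of the genes of this list called there, Tgfbr2 was still called without the nucleus that held most of its UMIs (3.87-fold, 1.24 to 19.5). Treated in the same way, Bmp6, Tgfbr3 and Tgfb2 were not called and the ratio of Tgfbr1 fell below 1. Bmp6 changed sides when the 17 nuclei were left out. It gave 4, 7, 9 and 14 UMIs in the 4 Pax7 nuclei and 0 in the 9 mural nuclei, against 18 in 3 of the 33 endothelial nuclei, 16 of them in 1. The receptor Acvrl1, through which endothelium reads BMP9, gave 13 UMIs in 8 of the 33 (3.02-fold, 1.56 to 5.46, over other nuclei). Tgfb2, a TGF-beta ligand, gave 14 UMIs in 2 of the 9 mural nuclei and 4 in the 33 endothelial nuclei. Of 10 genes of mesenchymal transition 1 was higher and 2 were lower in vascular nuclei. Over all genes 8.26% were higher and 8.55% lower, so nothing is read from these counts. Zeb1 was at 1901 CPM (1697 to 2123) in the 33 endothelial nuclei and 1544 CPM (1202 to 1955) in the mural nuclei, while Zeb2 had 11 UMIs in the 33 endothelial nuclei, 252 in the 13 immune-marked nuclei and 132 in the 9 mural nuclei (44.6-fold, 24.2 to 91.6, over the 33).

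The mural side carried both pericyte and smooth muscle genes. Of 7 pericyte genes compared between the sides, 6 were higher on the mural side and 0 on the endothelial side, and of 9 smooth muscle genes 8 and 0, with the same counts between the 33 and the 9 nuclei. In the 9 mural nuclei the pericyte list stood at 5260 CPM (4609 to 5977) and the smooth muscle list at 5932 CPM (5239 to 6690), against 307 CPM and 301 CPM in the 33 endothelial nuclei. Against collagen nuclei, the nearest stromal cells in the library, the mural nuclei were 8.52-fold (7.31 to 9.90) and 7.75-fold (6.72 to 8.91) higher. Several classical pericyte genes were scarce in the 59 nuclei, with Kcnj8 at 2 UMIs, Higd1b at 0 and Steap4 at 8.

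Trpc6, a cation channel gene, gave 49, 15, 5, 4, 1, 1 and 2 UMIs in 7 of the 9 mural nuclei and 0 on the endothelial side and in the Pax7 nuclei (at least 95.5-fold over the 33 endothelial nuclei). It was 55.2-fold (33 to 96.5) higher in vascular than in other nuclei, and 20.6-fold (11.1 to 39.1) without the nucleus with 49 UMIs. Ebf2, a transcription factor of mesenchymal progenitors, was found in 7 mural nuclei, 6 of them with Trpc6, but also elsewhere in the library at 97.5 CPM (88.1 to 108). The guanylate cyclase subunits Gucy1a1 and Gucy1b1, which read nitric oxide, gave 19 and 10 UMIs in 7 and 5 mural nuclei and 0 in endothelial nuclei. Abcc9, a potassium channel subunit of pericytes, was in 5 of the 9, and both nuclei with Rgs5 were among them. Mcam, though listed as a pericyte gene, lay on both sides at 295 CPM (218 to 389.7) and 291 CPM (155 to 498).

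Contractile genes were unevenly spread. Acta2 (chr19:34241090-34255590, minus strand), smooth muscle actin, gave 10, 1, 6, 6, 3, 1 and 3 UMIs in 7 of the 9 mural nuclei and 1 UMI on the endothelial side (112-fold, 18.6 to 4554, over the 33). It stood at 672 CPM (453 to 959) in the 9 mural nuclei and 48.3 CPM (41.7 to 55.5) in the other nuclei, and was 2.16-fold (1.43 to 3.17) higher over the whole vascular set, most of which was endothelial. Without the nucleus with 10 UMIs that ratio was 1.51-fold (0.912 to 2.37). Mylk, the myosin light chain kinase, was in 8 of the 9 mural nuclei. Myocd, the cofactor that drives smooth muscle genes, gave 1, 1, 12 and 3 UMIs in 4, and Tagln gave 8 UMIs in 2.

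Within the mural nuclei, a few stood apart by contractile genes. Kcnab1, a potassium channel subunit, gave 36, 35 and 2 UMIs in 3 nuclei. All 3 held Synpo2, an actin-bundling gene (15, 14 and 2 UMIs), and the first 2 alone held Ryr2, the calcium release channel, at 11 and 9 UMIs. The same 2 nuclei had the 2 highest Myh11 counts, 46 and 19, and 96 and 86 smooth muscle UMIs beside 32 and 16 pericyte UMIs. The nucleus with most pericyte UMIs, 65, had 49 UMIs of Trpc6, 7 of Rgs5 and 12 of Myh11. Olfr78, an olfactory receptor gene, gave 21 and 7 UMIs in 2 mural nuclei and 2 in the 1068 other nuclei (191-fold, 48.0 to 1650). With 9 nuclei of 974 to 10396 UMIs these differences were not divided into types.

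Calcium and cyclic nucleotide genes were higher in the mural nuclei. Of 9 compared, 8 were higher on the mural side and 1, Itpr1, on the endothelial side (8 and 0 without the nuclei set apart), and the list stood at 17996 CPM (16774 to 19284) in the 9 mural and 1155 CPM (997 to 1330) in the 33 endothelial nuclei. Cacna1c (chr6:118587240-119196418, minus strand), the L-type calcium channel that triggers contraction, gave 26, 9, 27, 65, 17, 8, 35, 9 and 2 UMIs in the 9 mural nuclei. It gave 0 in the 46 nuclei of the endothelial side and 1 in the Pax7 nuclei, a ratio of at least 191-fold between the sides. Pde3a, which breaks down cyclic AMP, was in 9 of 9 mural nuclei with 202 UMIs, in 1 Pax7 nucleus with 42 and in the endothelial nuclei with 1. Prkg1, the kinase through which nitric oxide relaxes muscle, was at 5171 CPM (4525 to 5882) in mural and 48.1 CPM (20.8 to 94.8) in endothelial nuclei (107-fold, 53.6 to 252).

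These genes were not confined to vessels in this library. Prkg1 stood at 587 CPM (563 to 611) in the other nuclei and was only 1.40-fold (1.22 to 1.60) higher over the whole vascular set, and Kcnma1, the calcium-activated potassium channel, was lower in vascular nuclei (0.125-fold, 0.0753 to 0.196). Itpr1, the inositol trisphosphate receptor, was higher on the endothelial side (2.64-fold, 1.76 to 4.10), but this was not resolved between the 33 and the 9 nuclei (1.52-fold, 0.997 to 2.40). Further genes led the mural side by their lower bound, such as the chloride channel Ano1 with 69 UMIs in 7 of 9 nuclei and the guidance ligand Slit3 with 101 in 8. Ror1, a Wnt receptor, had 66 of its 168 mural-side UMIs in the 9 mural nuclei and 102 in the Pax7 nuclei. Hs6st2, a heparan sulfate enzyme, had 0 and 100, so its place on the mural side rested on the Pax7 nuclei.

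**Figure D4:**
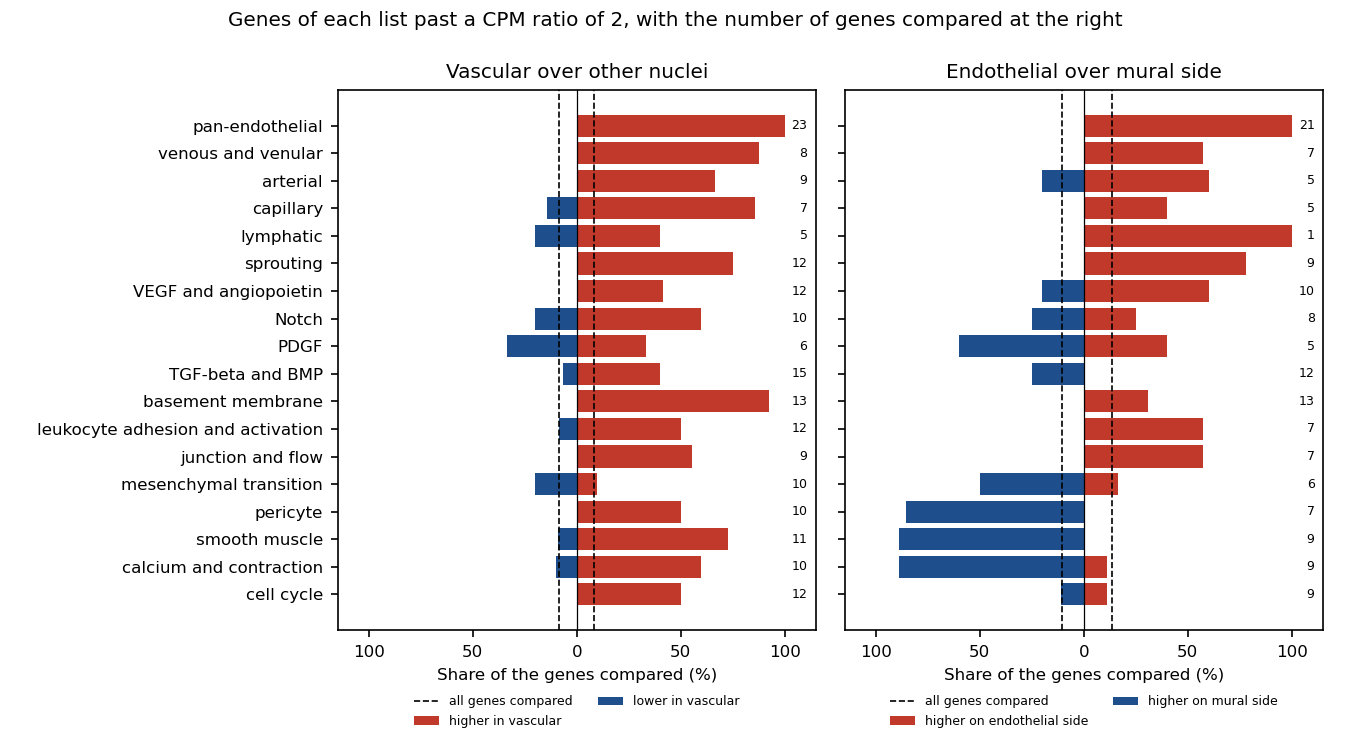
Share of the compared genes of each list, in percent, that were at least 2-fold higher (red, to the right) or lower (blue, to the left) in the 59 vascular over the 1068 other retained nuclei and on the endothelial over the mural side, with the number of genes compared at the right of each bar. Dashed lines give the same shares over all genes compared, 8.26% and 8.55% in the left panel and 13.4% and 10.5% in the right. The pan-endothelial bar reaches 100% in both panels and the calcium bar points to the mural side in the right.

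Calls were repeated for listed and leading genes without the nucleus that held most UMIs of the gene in the higher group, which also took some genes below 10 UMIs. Of those higher in vascular than in other nuclei, 91 were still called and 31 were not, Acta2, Jag1, Ebf2 and Cacna1c among them. In 5 more the ratio fell below 1 with an interval that held 1 (Fbln5, Icam1, Lama2, Tagln and Timp4). Of those higher in the 33 endothelial than in the 9 mural nuclei, 44 were still called and 11 were not, among them Dll4, Vegfc, Selp, Vcam1, Icam1 and Bmp6. Of those higher in the 9 mural nuclei, 31 were still called and 14 were not, among them Vegfa, Tgfb2, Ryr2, Olfr78, Myocd and Kcnma1. In 2 more the ratio fell below 1 (Col15a1, whose interval held 1, and Tgfbr1).

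Shares of nuclei with a UMI were compared after every nucleus had been thinned to 500 UMIs, with the myeloid nuclei as cells that should lack these genes. Cdh5 was then found in 19.6% of the 46 endothelial-side nuclei (unthinned 63.0%), in 0% of the mural side and in 0% of 364 myeloid nuclei, whose median depth was 3910 UMIs. Mecom was in 56.5% (unthinned 69.6%) against 0% of myeloid nuclei, or 2.75% of them unthinned, and 6.05% of collagen nuclei, or 22.3% of them unthinned. On the mural side Cacna1c was in 53.8% (unthinned 76.9%) and Pde3a in 69.2%, against 0.824% and 0.275% of myeloid nuclei. Collagen nuclei held both genes more often, Cacna1c in 25.1% (unthinned 59.5%) and Pde3a in 6.98% (unthinned 32.6%). Col4a1 was in 39.1% of the endothelial and 15.4% of the mural side against 0.275%. Zeb2 stood out as the reverse, in 88.5% of myeloid nuclei, 69.2% (38.6% to 90.9%) of the mural and 23.9% of the endothelial side. It was in 3.03% of the 33 endothelial and 55.6% (21.2% to 86.3%) of the 9 mural nuclei. Without the nuclei set apart, Cdh5 was in 27.3% and Mecom in 78.8% of the 33. Cacna1c was then in 77.8% and Pde3a in 88.9% of the 9.

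Genes of other cell types were measured in the set as lists. The 33 endothelial nuclei held myeloid genes at 132 CPM (82.9 to 200.4), lymphoid at 126 CPM, fibroblast at 283 CPM, skeletal muscle at 12 CPM, chondro-osteogenic at 54.1 CPM, Schwann at 12 CPM, adipocyte at 54.1 CPM and erythroid at 6.02 CPM. In the other retained nuclei the myeloid list was at 3298 CPM, the fibroblast list at 2168 CPM and the adipocyte list at 21.8 CPM. The 13 immune-marked nuclei held 4745 CPM of myeloid, 3305 CPM of lymphoid and 1625 CPM of chondro-osteogenic genes, of which Runx2 gave 85 UMIs, 52 of them in 1 nucleus. Their part in comparisons of the whole endothelial side was not tested, and the values without them are given above.

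The mural nuclei held fibroblast genes at 4387 CPM (3794 to 5046), 0.591-fold (0.510 to 0.681) the level of the collagen nuclei. Of 196 UMIs, 63 were of Col6a3, 45 of Prrx1, 31 of Fbn1, 27 of Col5a2 and 18 of Col12a1, and these 5 were all of the genes of the list that could be compared and were higher than in the 33 endothelial nuclei. Lum, Dcn, Mfap5, Dpp4 and Pi16 were at 0. The part of fibroblast RNA in the levels of the mural nuclei was not tested. Neutrophil genes stood at 336 CPM in the 9 mural nuclei, with 10 of 15 UMIs from Csf3r and 9 of these in 1 nucleus, myeloid at 134 CPM, lymphoid at 22.4 CPM, and skeletal muscle, erythroid and adipocyte genes at 0. The Pax7 nuclei held skeletal muscle genes at 2482 CPM and fibroblast genes at 2608 CPM. Osteoclast genes were at 0 in the 33 endothelial and the 9 mural nuclei. The pan-endothelial list in the 33 endothelial nuclei was 21.9-fold (20.6 to 23.3) over myeloid nuclei, 15.2-fold over collagen nuclei and 5.94-fold over muscle nuclei.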

How the data were processed

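The files the authors deposited hold unnormalized UMI counts, 1 matrix for each library, made with Cell Ranger 7.0.1 from 10x Genomics 3′ v3.1 libraries on mm10, with intronic and exonic reads counted. The labels also name HG38, but all gene identifiers were those of the mouse. Nuclei with 200 to 5000 genes, under 5% mitochondrial and under 2% ribosomal protein UMIs were kept, as in the study. The study also removed myogenic cells. These were not removed here, so the retained nuclei include muscle nuclei and differ from the study's set. Symbols repeated in the matrix (40) were summed, giving 32245 genes from 32285. No per-sample column was left unused. Scrublet (scanpy 1.11.5) called 3 of 1127 nuclei as doublets, 0 of them vascular, so under 0.5% of nuclei were marked and doublets were not otherwise removed.

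The vascular rule took nuclei with at least 3 UMIs over Pecam1, Flt1, Ptprb, Emcn, Eng, Notch3, Rgs5 and Myh11 and with smaller sums of the macrophage genes Adgre1, Csf1r, Mertk, Ms4a7 and Cd84, of the collagen genes Col1a1, Col1a2, Col3a1, Col5a1, Postn and Pdgfra, and of the muscle genes Ttn, Neb, Ckm, Myh1, Myh4 and Acta1. Reference groups of 364 myeloid, 215 collagen and 140 muscle nuclei came from the mirrored rule. The members, the gene lists and the rule were chosen with earlier results of these data known. The groups of 33, 13, 9 and 4 nuclei were formed after seeing the data.

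UMIs were summed over nuclei. Exact Poisson intervals were used for CPM, Clopper-Pearson intervals for shares and conditional binomial intervals for CPM ratios, all at 95% and for counting error only. A gene was called at a ratio of at least 2 or at most 0.5 with an interval not holding 1 and at least 10 UMIs in both groups together. A group at 0 was set to a floor of 3 UMIs per group for a lower bound. No test was run, since each condition had 1 library. Named genes were list members, the 12 genes with the highest lower bound of each ratio, and the genes of the rule. Counting of calls was checked on simulated pooled counts with Poisson error only. These held no spread between nuclei, so the check does not cover genes carried by single nuclei. Positions are those of GENCODE vM21 on mm10, found for 313 of 314 symbols. Promoters are those of RefSeq on GRCm38.p6. The software was pandas 2.3.3 with scipy 1.17.1 on numpy 2.4.6, run under Python 3.11.15. Alternatives covered the quality limits, the marker minimum, stricter exclusion of other lineages, the UMI minimum per gene, thinning to 500 UMIs, means of per-nucleus CPM, the doublet calls, the deepest nuclei and each list and each called gene without the nucleus that held most of it. The last 3, and the counts without the 17 nuclei set apart, were chosen after seeing the data.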

Additional observations from a re-analysis of the deposited data

Results flagged for a closer look

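Barcodes outside the main set also carried vascular genes. In the MTI library, 22 barcodes met the marker rule but not the quality limits, 20 of them with a mitochondrial share of 5% or more and 3 with over 5000 genes. Of these, 18 were on the endothelial side and 4 on the mural side, of which 1 held Pax7. In 15 of the 18 the pan-endothelial list exceeded the immune lists, against 33 of 46 within the limits. In the library of day 1 after fracture, 1 of 2405 retained nuclei met the rule, with 485 UMIs and 0 of the pan-endothelial list. With the quality limits of the MTI library 6 nuclei met it, with a median of 461 UMIs and 6 pan-endothelial UMIs in all. The retained nuclei of the day 1 library had a median of 409 UMIs and those of the MTI library 2364, so at this depth the share of vascular nuclei in the 2 libraries was not compared.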

How the results depend on the processing

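With a mitochondrial limit of 0.5% and a ribosomal limit of 2.5%, 32 vascular and 22 endothelial-side nuclei were left, and the log2 ratio of Icam1 over other nuclei turned to -2.62. With no UMI of the other lineages allowed, 11 nuclei were left (0.976% of retained nuclei), 10 endothelial and 1 mural, with 741 genes higher and 472 lower in vascular nuclei and 3 and 25 genes higher on the endothelial and mural sides. There the ratios of Kif11 and Top2a over other nuclei turned to -0.96 and -0.75 and that of Lamb1 between the sides to -1.84. Thinning every nucleus to 500 UMIs gave 477 higher, 206 lower, 50 endothelial and 44 mural genes. At 20 or more UMIs per gene, 368 genes were higher on the mural side. With no UMI of the other side allowed, 5 mural nuclei were left, 294 and 331 genes were higher on the endothelial and mural sides, and Pdgfd turned to -0.41. Without the immune-marked and Pax7 nuclei, 492 genes were higher on the endothelial side. Fewer nuclei, UMIs or compared genes entered each of these settings, and further causes were not tested. The other 73 values of nucleus and gene counts stayed within 1.5 times. Of 812 ratios of named genes under these settings, 626 stayed within 1.5 times, 181 moved by more without changing direction and the 5 named above reversed. No paired analysis was possible because each condition had 1 library. Single nuclei carried part of the levels on both sides. Of 86 listed genes with 10 or more UMIs on the mural side, 29 had 50% or more of them in 1 nucleus, against 15 of 124 on the endothelial side.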
